A study of Mus musculus with 30 samples.

Results

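Hearts of mice killed 28 days after carbon black was placed in their airways were compared with hearts of vehicle mice of the same day, by the signals of mouse microRNAs (miRNAs) on arrays. The 5 samples labelled as high-dose Printex 90 on day 28 and the 4 labelled as controls of that day were taken by their source labels, 9 of the 30 samples of the series. Printex 90 is a brand of carbon black, whose primary particles are in the nanometre range. Each exposed mouse had received a single intratracheal dose of 162 µg, suspended by sonication in 40 µl of 0.9% saline with 10% by volume of acellular lung lavage fluid from mice of the same strain, followed by 150 µl of air. The labels call the other group vehicle control, with a dose of 0 µg. All mice were female C57BL/6 animals bought at 5 to 6 weeks of age, and each RNA came from 1 mouse, from a section through both ventricles. The series text gives 6 mice per group, and the values below rest on the 4 and 5 held here. Hearts of days 1 and 3, from other mice, entered the model for the estimate of the spread.

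A miRNA is a short RNA that pairs with messenger RNAs, mainly through its seed, bases 2 to 8, and lowers their translation or stability. Heart muscle is rich in a few of them: miR-1 and miR-133 are made in muscle cells, and miR-208a, miR-208b and miR-499 are cut from introns of myosin genes, so that their production follows that of the heavy chains. The miR-29 family represses collagen and other matrix transcripts, miR-126 belongs to endothelial cells, and miR-451 with miR-144 is made in red cell precursors and is abundant in red blood cells. A heart section therefore gives a mixture, in which fewer cells of a type and less RNA per cell cannot be told apart.

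Of the 306 miRNAs tested, 194 could be matched by name to a mature sequence of RefSeq (build GRCm38.p6), 62 under the name on the array and 132 under a current name. The entries of 1 chromosome were left out before matching, as were names with more than 1 sequence. The sequences below belong to the miRNAs on which the description of day 28 turns, 5′ to 3′ with the seed in capitals. The first set comes from myosin genes: miR-208a-3p lies at chr14:54949072-54949093 on the minus strand, inside Myh6, the gene of alpha-myosin, and miR-208b-3p inside Myh7, that of beta-myosin. The place of miR-499-5p is chr2:155622893-155622913 on the plus strand, inside Myh7b.
miR-208a-3p: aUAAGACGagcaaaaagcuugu
miR-208b-3p: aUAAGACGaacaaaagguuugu
miR-499-5p: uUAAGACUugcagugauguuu
The miR-208 pair shares its whole seed. The next set holds the miR-29 and miR-101 families, shown because miR-101c, miR-101a and miR-29b came next to miR-208a-3p by p among the miRNAs with lower values in exposed hearts. The strands miR-29a-3p, miR-29b-3p and miR-29c-3p share 1 seed. The 19 bases of miR-101c are contained in the 21 of miR-101a-3p, and how far their probes share signal was not tested.
miR-29a-3p: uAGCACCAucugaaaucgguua
miR-29b-3p: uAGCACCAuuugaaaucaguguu
miR-29c-3p: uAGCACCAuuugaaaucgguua
miR-101a-3p: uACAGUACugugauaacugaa
miR-101b-3p: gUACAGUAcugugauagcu
miR-101c: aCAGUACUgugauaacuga
Both strands of miR-144 and miR-451a come from 1 locus (miR-451a at chr11:78073186-78073207, plus strand), and they are shown because their values were higher in exposed hearts.
miR-144-3p: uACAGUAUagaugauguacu
miR-144-5p: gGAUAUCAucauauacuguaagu
miR-451a: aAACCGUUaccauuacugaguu
The last set is shown for what its members share, a run of alternating purines and pyrimidines (ug or ac repeats). The first 6 have names of the family that fills an intron of Sfmbt2, and the other 4 have unrelated names.
miR-466i-3p: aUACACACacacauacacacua
miR-466j: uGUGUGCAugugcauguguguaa
miR-466q: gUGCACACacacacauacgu
miR-467f: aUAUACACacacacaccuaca
miR-467g: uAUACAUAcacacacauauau
miR-669n: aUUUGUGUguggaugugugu
miR-574-5p: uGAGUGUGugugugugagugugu
miR-1187: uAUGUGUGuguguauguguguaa
miR-206-3p: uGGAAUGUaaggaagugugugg
miR-32-3p: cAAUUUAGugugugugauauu

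Values are log2 signals after background subtraction by the scanner software and scaling of each array; differences are Printex 90 minus vehicle on that scale, with the standard error (SE) of the fit. Probes differ in how well they bind, so no level of 1 miRNA is set against that of another. On the 9 arrays of day 28, 347 of 1079 mouse miRNAs were detected at least once and 261 on every array. On average 24.7% ± 0.631 (SD, n = 5) of the spots of exposed and 24.5% ± 1.81 (n = 4) of those of vehicle hearts stood well above background (two-sided exact permutation test, p = 0.762). No spot was saturated (0 spots). The brightness of arrays before scaling differed by up to 1.35-fold. Muscle miR-1a, miR-133a and miR-133b were detected on all 9 arrays, as were miR-499 and both strands of miR-208a. Of the 8 pancreas, 12 epithelium and 4 cilia miRNA names on the array, 0 were detected in any of these hearts. Of 15 brain marker names 3 were detected, miR-128 and miR-219-5p in all 9 hearts (−0.05 ± 0.09 and −0.07 ± 0.14) and miR-129-1-3p in 1 vehicle heart. Liver miR-122 was detected in 3 of 4 vehicle and 4 of 5 exposed hearts.

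No tested miRNA differed between exposed and vehicle hearts past the threshold on day 28, and the differences with the smallest p were small: miR-208a-3p, miR-101c, miR-101a and miR-29b were lower and miR-144* and miR-451 higher in exposed hearts, as values that did not pass. By limma, 0 of 306 miRNAs passed an adjusted p of 0.05 (smallest adjusted p = 0.906), and 1 miRNA, miR-208a-3p, had an unadjusted p under 0.05 (0.327% of those tested). With slide as a block 0 passed and 2 had an unadjusted p under 0.05. Differences were below 0 for 138 miRNAs (45.1%) and above 0 for 168 (54.9%), with a median over all of 0.01. For 237 miRNAs the 95% interval held no change of 2-fold, and for 178 of them none of 1.5-fold either, whereas for the rest a change of 2-fold could not be told from none. No value named below passed the threshold.

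Of miRNAs from myosin genes, 3 of 4 tested had lower values in exposed hearts, and their median was −0.06; the 4th was miR-208b, which is taken up last. In vehicle hearts miR-208a-3p stood at 9.11, 8.97, 8.93 and 8.81, and in exposed hearts at 8.72, 8.56, 8.85, 8.58 and 8.81. The 5 exposed values all lay below the vehicle mean, but the highest of them lay above the lowest vehicle heart. The difference was −0.25 ± 0.12 (95% interval −0.49 to −0.01; adjusted p = 0.906 by limma), a fold of 0.839. With slide as a block it was −0.22, and within the 3 slides that held both groups it ran from −0.39 to −0.00. Here and below, a difference within slide 1 or 4 sets a single exposed heart against a single vehicle heart. The other strand of the same hairpin, miR-208a-5p, was at −0.06 ± 0.10. The values of miR-499 were 11.43, 11.37, 11.28 and 11.40 in vehicle and 11.29, 11.01, 11.28, 11.43 and 11.52 in exposed hearts, and the exposed range spanned the vehicle range (−0.06 ± 0.15). For miR-208b, whose rise with beta-myosin is a known mark of the stressed adult heart, the signal did not reach detection on any of the 9 arrays (0 of 4 and 0 of 5), so no fold is given.

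The muscle miRNAs miR-1a, miR-133a and miR-133b, which hold back growth of heart muscle cells, were close to vehicle. Their differences were −0.03 ± 0.08, −0.08 ± 0.10 and −0.08 ± 0.10. For miR-133a the vehicle hearts stood at 14.00, 13.86, 14.02 and 13.80 and the exposed at 13.80, 13.80, 13.81, 13.80 and 13.98. Of 6 tested muscle miRNAs 5 had lower values (median −0.08, but 0.03 by the values of the deposited series matrix). The exception was miR-206, a miRNA of skeletal muscle, at 0.37 ± 0.30; it was detected in 2 of 4 vehicle and 4 of 5 exposed hearts, and its sequence holds the ug repeat taken up further on. Among miRNAs tied to cardiac stress, miR-22 was at −0.08 ± 0.06, miR-320 at −0.06 ± 0.09 and miR-195, which slows the cell cycle of muscle cells, at −0.03 ± 0.11. Of the 6 tested members of that list 5 had lower values (median −0.06). The 1 with a higher value was miR-195*, the other strand of miR-195, at 0.22 ± 0.29.

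**Figure D1:**
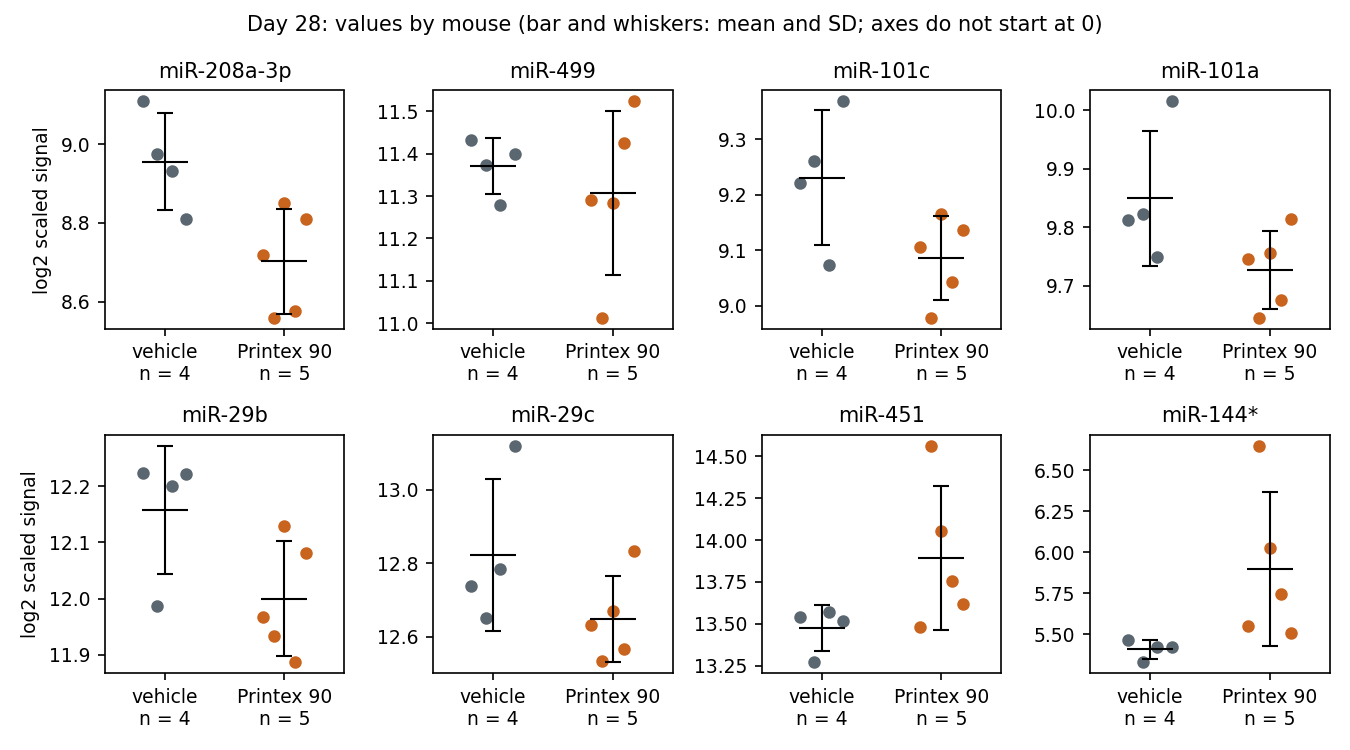
Log2 scaled signal of 8 miRNAs in each heart of day 28 (points), with the mean and SD of 4 vehicle and 5 Printex 90 hearts; each panel has its own axis, which does not start at 0. The exposed values of miR-208a-3p, miR-101c and miR-29b lay below the vehicle means and overlapped the vehicle range, whereas 1 exposed heart, replicate 2, stood highest for miR-451 and miR-144*.

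Fibroblast and matrix miRNAs had lower values in 9 of 9 tested members, where 45.1% of all tested miRNAs did, and their median was −0.12 against 0.01 over all. Lower values were more common among bright miRNAs, and the mean vehicle level of this list was 9.20. Of the 102 tested miRNAs with the highest vehicle signal (7.56 or more), 60 were lower, with a median of −0.03. For miR-29b, which represses collagen transcripts, vehicle hearts were at 12.22, 11.99, 12.20 and 12.22 and exposed hearts at 11.97, 11.93, 12.13, 11.89 and 12.08. All 5 exposed values lay below the vehicle mean, and vehicle replicate 2 lay within their range. The difference was −0.16 ± 0.09. The values of miR-29c were 12.74, 12.65, 12.78 and 13.12 in vehicle and 12.63, 12.53, 12.67, 12.56 and 12.83 in exposed hearts, with vehicle replicate 4 above every other heart (−0.18 ± 0.11). In the same way miR-29a was highest in vehicle replicate 4, and it differed by −0.14 ± 0.12. The other strand of the miR-29c hairpin, miR-29c*, was at −0.12 ± 0.09. From the fibroblast-rich miR-199 and miR-214 cluster, miR-199a-5p was at −0.11 ± 0.16, miR-199a-3p at −0.09 ± 0.18 and miR-214 at −0.01 ± 0.18. Without vehicle replicate 4 the median of the list was −0.04, and within the 3 slides it was 0.04, −0.06 and −0.29.

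The 3 tested members of the miR-101 family, which represses the Ezh2 and Fos transcripts, each lay below the vehicle mean in 5 of 5 exposed hearts, as did 9 of all 306 miRNAs (2.94%). The values of miR-101c were 9.22, 9.26, 9.07 and 9.37 in vehicle and 9.11, 8.98, 9.17, 9.04 and 9.14 in exposed hearts. Only vehicle replicate 3 was within the exposed range. The difference was −0.15 ± 0.07 (adjusted p = 0.906 by limma). For miR-101a the vehicle hearts were at 9.81, 9.82, 9.75 and 10.02 and the exposed at 9.75, 9.65, 9.76, 9.68 and 9.81, which differed by −0.12 ± 0.07, and miR-101b was at −0.06 ± 0.06. Without vehicle replicate 4 miR-101c was at −0.10 and miR-101a at −0.07. Of the 9, the remaining ones were miR-26a (−0.09 ± 0.07), miR-30e (−0.11 ± 0.11), miR-194 (−0.08 ± 0.09), miR-199a-5p, miR-29b and miR-208a-3p.

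In the miR-30 family, which is abundant in heart muscle cells and restrains the matrix factor Ctgf, 10 of 11 tested strands had lower values (median −0.07). The values of miR-30a were 11.60, 11.48, 11.52 and 11.36 in vehicle and 11.42, 11.40, 11.50, 11.32 and 11.34 in exposed hearts, at −0.10 ± 0.07. Within the 3 slides the family's median was 0.02, −0.06 and −0.03. Small differences in 1 direction also stood in the miR-23, miR-27 and miR-24 clusters (lower in 7 of 7, median −0.05, but 0.06 and 0.02 within slides 1 and 4), the miR-10, miR-99/100 and miR-125 families (7 of 7, −0.06, but 0.26 within slide 1) and the miR-181 family (4 of 4, −0.05, but 0.01 with normexp background correction and 0.05 within slide 4). Both tested miR-26 members were lower (median −0.09, but 0.07 within slide 1). The lowest value among these families was that of miR-10b, −0.26 ± 0.30, with an SE larger than the difference.

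**Figure D2:**
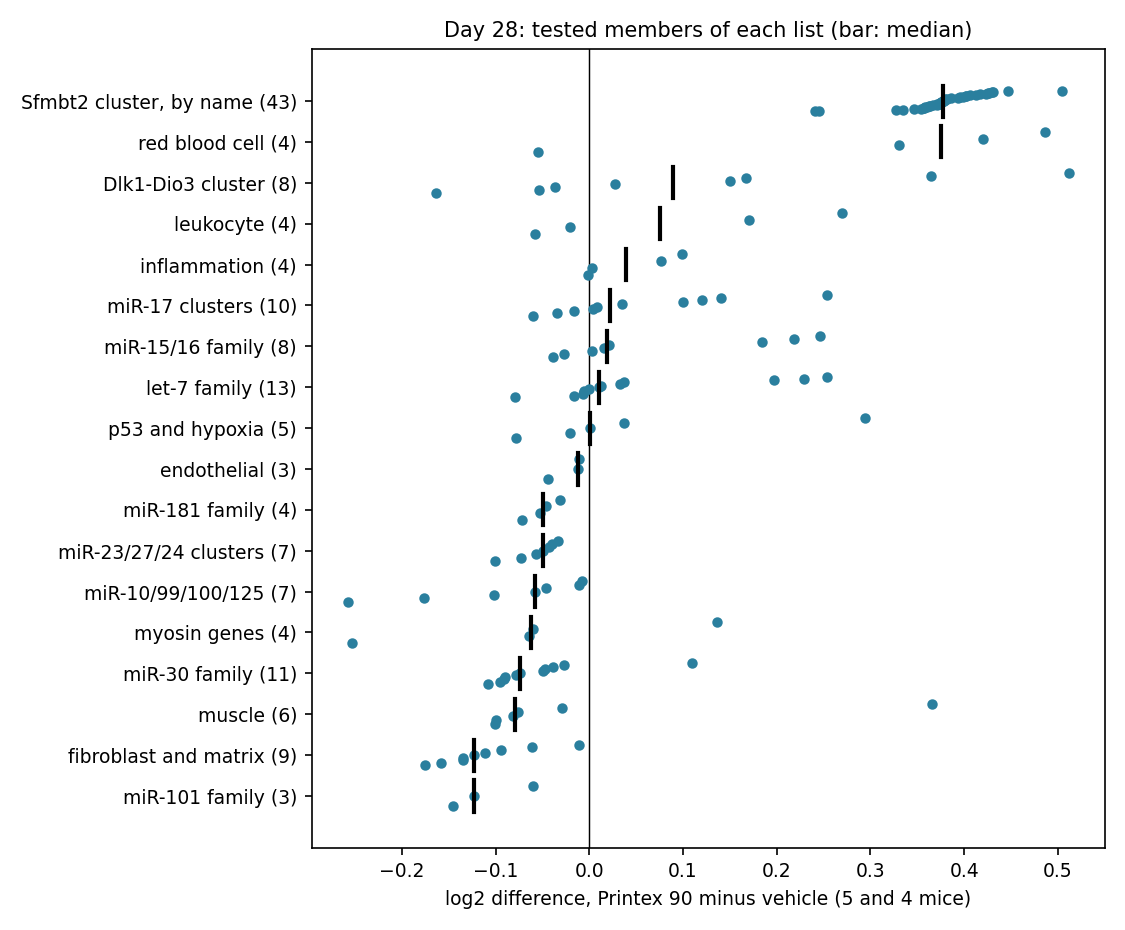
Log2 differences, Printex 90 minus vehicle, of the tested members of 18 lists on day 28 (points; 5 and 4 mice), with the median of each list as a bar and the number of members in brackets. Fibroblast and matrix and miR-101 members lay below 0, members named for the Sfmbt2 cluster lay between 0.24 and 0.50, and 3 of 4 red cell members lay above 0 by 0.33 to 0.49.

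Red cell miRNAs had higher values in 3 of 4 tested members (median 0.38). In vehicle hearts miR-451 stood at 13.54, 13.27, 13.57 and 13.52, and in exposed hearts at 13.48, 14.56, 14.05, 13.75 and 13.62. Exposed replicates 2 and 3 were highest, and replicate 1 lay within the vehicle range. The difference was 0.42 ± 0.25, and 0.25 without exposed replicate 2. The values of miR-144* were 5.47, 5.33, 5.42 and 5.42 in vehicle and 5.55, 6.65, 6.03, 5.74 and 5.51 in exposed hearts. It was the 1 miRNA of 306 (0.327%) whose exposed values all lay above all vehicle values, by a margin of 0.04 between exposed replicate 5 and vehicle replicate 1. The difference was 0.49 ± 0.27 (adjusted p = 0.906 by limma) and 0.30 without exposed replicate 2. The opposite strand, miR-144, was at 0.33 ± 0.25, and miR-486*, from another red cell locus, at −0.05 ± 0.08. Within slides the median of the 4 was −0.04, 0.82 and 0.09. The mean level of the list ran from 8.66 to 8.81 in vehicle and from 8.74 to 9.51 in exposed hearts; the part of blood left in the tissue was not tested.

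Other miRNAs of blood cells and of growing cells were also highest in exposed replicate 2. Leukocyte miR-142-3p was at 8.80, 8.82, 8.95 and 8.83 in vehicle and 8.87, 9.68, 9.14, 9.06 and 8.85 in exposed hearts, at 0.27 ± 0.19 and 0.13 without that replicate. From the miR-106b and miR-25 cluster, which drives cell growth, miR-25, miR-93 and miR-106b were at 0.12 ± 0.10, 0.14 ± 0.12 and 0.10 ± 0.10, and without that replicate at 0.07, 0.04 and 0.02. A further case was miR-15b, at 0.18 ± 0.14. In contrast the myeloid miR-223 was at −0.06 ± 0.10 and lymphocyte miR-150 at −0.02 ± 0.19. Leukocyte miRNAs as a list were higher in 2 of 4 (median 0.08), and −0.10 when arrays were scaled on all probes, where the median of all tested miRNAs was −0.16.

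Inflammation-induced miRNAs differed by −0.00 to 0.10 on day 28. The values of miR-21, which is induced in injured and fibrotic hearts, were 10.42, 10.52, 10.43 and 10.66 in vehicle and 10.41, 10.59, 10.47, 10.49 and 10.59 in exposed hearts, at 0.00 ± 0.12. For miR-146a, which dampens Toll-like receptor signalling, vehicle hearts were at 6.41, 7.02, 7.01 and 6.93 and exposed at 6.99, 7.56, 6.56, 6.78 and 6.80; the lowest heart was vehicle replicate 1 and the highest exposed replicate 2 (0.10 ± 0.17). The T cell and macrophage miRNA miR-155 was at 0.08 ± 0.09 and miR-132 at −0.00 ± 0.18. Of 12 strands of this list on the array, 4 were detected and tested, and 3 of them had higher values (median 0.04, but −0.04 without exposed replicate 2 and −0.13 when scaled on all probes).

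Differences of vessel, hypoxia and DNA damage miRNAs were within their errors. Endothelial miR-126-3p was at 13.54, 13.55, 13.61 and 13.61 in vehicle and 13.51, 13.71, 13.44, 13.46 and 13.70 in exposed hearts (−0.01 ± 0.08), and miR-221 at −0.01 ± 0.14. Smooth muscle miR-143 and miR-145 were at −0.06 ± 0.24 and −0.02 ± 0.20. For miR-210, induced by hypoxia, the difference was 0.00 ± 0.09, and for p53-induced miR-34a 0.04 ± 0.08. The 95% intervals lay within 1.5-fold for miR-126-3p, miR-210 and miR-34a. The other tested p53 and hypoxia members were miR-34b-3p (0.29 ± 0.35), miR-192 (−0.02 ± 0.09) and miR-194 (−0.08 ± 0.09). Of the 5 members 3 had higher values (median 0.00), and the sign of that median changed in 9 of 16 alternatives. The let-7 family, with 9 guide strands of 1 seed between −0.02 and 0.04, was split (7 of 13 strands higher), as were the miR-17 clusters (7 of 10, median 0.02), the miR-15/16 family (6 of 8, 0.02) and the Dlk1-Dio3 cluster (5 of 8, 0.09). None of these signs was stable: scaled on all probes the 4 medians were −0.16, −0.15, −0.15 and −0.08, and that of the Dlk1-Dio3 cluster was also −0.10 with quantile normalization, −0.01 by the deposited series matrix and −0.02 without exposed replicate 4. The miR-130, miR-301 and miR-148 families were higher in 1 of 5 (median −0.03), the family of miR-204 and miR-211 in 3 of 3 (0.04, but −0.31 within slide 1 and −0.13 when scaled on all probes) and late-numbered miRNAs in 4 of 9 (−0.04). Liver miR-122 was at 7.17, 6.39, 4.04 and 6.14 in vehicle and 4.80, 6.31, 4.04, 5.82 and 6.14 in exposed hearts, with 1 heart of each group at the floor of 4.04 (−0.51 ± 0.76).

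A large group with values on 1 side of vehicle was that of miRNAs named for the Sfmbt2 intron cluster (miR-297, miR-466, miR-467, miR-468, miR-469 and miR-669), a large repeat-derived group of rodents. Of 43 tested members 43 had higher values in exposed hearts, where 54.9% of all tested miRNAs did, between 0.24 and 0.50 with a median of 0.38, and 0 passed. Of the 67 miRNAs (21.9% of those tested) that lay above the vehicle mean in 5 of 5 exposed hearts, 29 were members. The median SE of a member was 0.34. For miR-467b* vehicle hearts were at 8.73, 8.93, 8.15 and 8.04 and exposed hearts at 9.14, 8.68, 8.89, 9.17 and 8.58, at 0.43 ± 0.29. Vehicle replicates 3 and 4 stood apart from the other 2, which lay within the exposed range. The mean level of the 43 was 6.92, 7.16, 6.16 and 6.36 in vehicle and 7.16, 6.75, 6.95, 7.37 and 6.92 in exposed hearts. Without vehicle replicate 3 the median was 0.23, within the 3 slides 0.25, 0.20 and 0.55, and by the deposited series matrix 0.16. Vehicle replicate 3 also had the lowest share of spots well above background of the 9 arrays (22.8%), and vehicle replicate 2 the highest (26.7%); with that share as a covariate the median was 0.34.

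Members of this group were chosen by name, so their places in RefSeq were looked up. All hairpin genes of 33 members lay inside Sfmbt2, whereas those of 8 members lay elsewhere (miR-466i-3p, miR-466i-5p, miR-466j, miR-466q, miR-467f, miR-467g, miR-468 and miR-669n, on chromosomes 3, 5, 6, 10, 11 and 13); miR-466f-3p had both, and for miR-297a-5* no hairpin gene was listed. The median difference was 0.37 for the 33 inside and 0.38 for the 8 elsewhere. The 6 of these with a sequence above hold UGUGUG or ACACAC, read on the strand of the mature miRNA. No other member of the group had a matched sequence, so the shares below cover matched miRNAs only. Over all matched tested miRNAs, 10 hold UGUGUG (5.15%, against 1.67% of the 1679 mature mouse sequences searched). Of these, 10 of 10 had higher values, with a median of 0.36, and the 184 without UGUGUG had a median of −0.02. ACACAC, searched after the values were seen, stood in 7 (3.61%, against 0.655%), of which 6 were higher (median 0.37). No matched miRNA held both, and the searches overlap with the names.

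The repeat was therefore looked at under other names. Of 11 matched miRNAs with UGUGUG or ACACAC and a name from outside the group, 10 had higher values, with a median of 0.34. They were miR-672 (0.45 ± 0.38), miR-32* (0.42 ± 0.36), miR-574-3p (0.37 ± 0.29), miR-206, miR-1187 (0.35 ± 0.35), miR-574-5p (0.34 ± 0.31), miR-3082-5p (0.33 ± 0.32), miR-294 (0.32 ± 0.34), miR-329 (0.17 ± 0.29), let-7b (0.04 ± 0.11) and, lower, miR-362-3p (−0.17 ± 0.11). Their median level was 7.33 in vehicle replicate 2, 6.31 in replicate 3 and 6.51 in replicate 4, with replicate 1 between, and 7.46, 6.83, 7.21, 7.42 and 7.14 in exposed hearts. Vehicle replicates 3 and 4 were again the lowest. The 177 matched miRNAs with neither repeat nor such a name had median levels of 6.62, 6.78, 6.67 and 6.81 in vehicle and 6.72, 6.65, 6.56, 6.71 and 6.76 in exposed hearts, and a median difference of −0.02. On day 1, in other mice, the 33, the 8 and the 11 stood at medians of −0.44, −0.41 and −0.41, and on day 3 at 0.12, 0.06 and 0.06. The part of a shared signal between probes of near-identical repeats in these values was not tested.

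**Figure D3:**
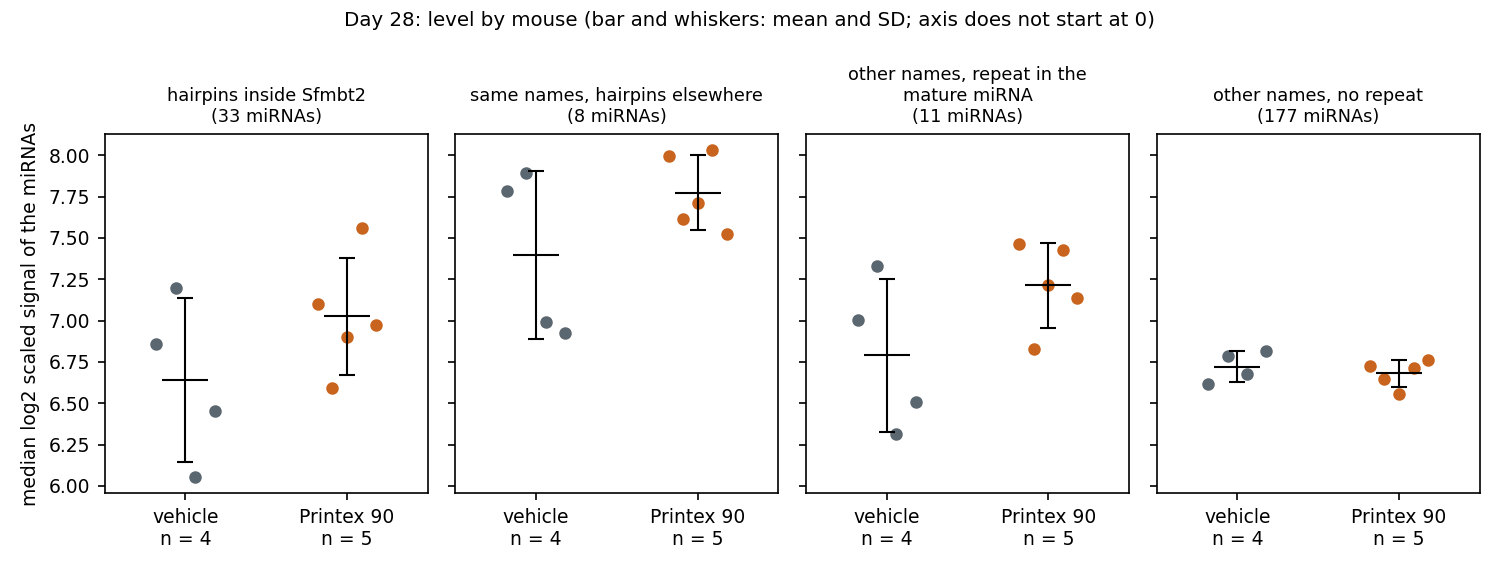
Median log2 scaled signal over 4 sets of miRNAs in each heart of day 28 (points), with the mean and SD of 4 vehicle and 5 Printex 90 hearts; the axis is shared and does not start at 0. In the 3 sets with cluster names or repeats, vehicle replicates 3 and 4 were lowest of the vehicle hearts and the group means differed by less than the SD of the vehicle hearts, whereas the 177 other miRNAs lay between 6.56 and 6.81 in all 9 hearts.

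Of 9 seeds held by 3 or more matched tested miRNAs, the 3 guide strands of miR-29 had the lowest median, at −0.16, and miR-30a, miR-30c and miR-30e stood at −0.10. The seed of miR-20a, miR-20b, miR-93 and miR-106b had a median of 0.05 and that of let-7 −0.00. The highest was that of let-7a-1*, let-7b* and let-7f-1*, at 0.23, of which let-7a-1* was lower (−0.08 ± 0.13). Split in 3 by G+C share, matched miRNAs had medians of −0.01, −0.03 and 0.00. Passenger strands, written with a star, were higher in 44 of 64 (median 0.25), but 14 of the 64 carry names of the Sfmbt2 group, and the other 50 had a median of 0.10. Error and sign both varied with the level. In the 102 miRNAs with the lowest vehicle signal the median SE was 0.24, and in the 102 with the highest 0.11. Of the former 72 had higher values, and of the latter 60 had lower values. A miRNA could enter the test through any group of the series, on day 28 by 4 of 4 vehicle or 4 of 5 exposed hearts. The part of this filter in the higher values of dim miRNAs was not tested. Without the Sfmbt2 list, 60 of 89 miRNAs with the highest signal were lower, with a median of −0.04. Directions of the lists above were not adjusted for level.

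**Figure D4:**
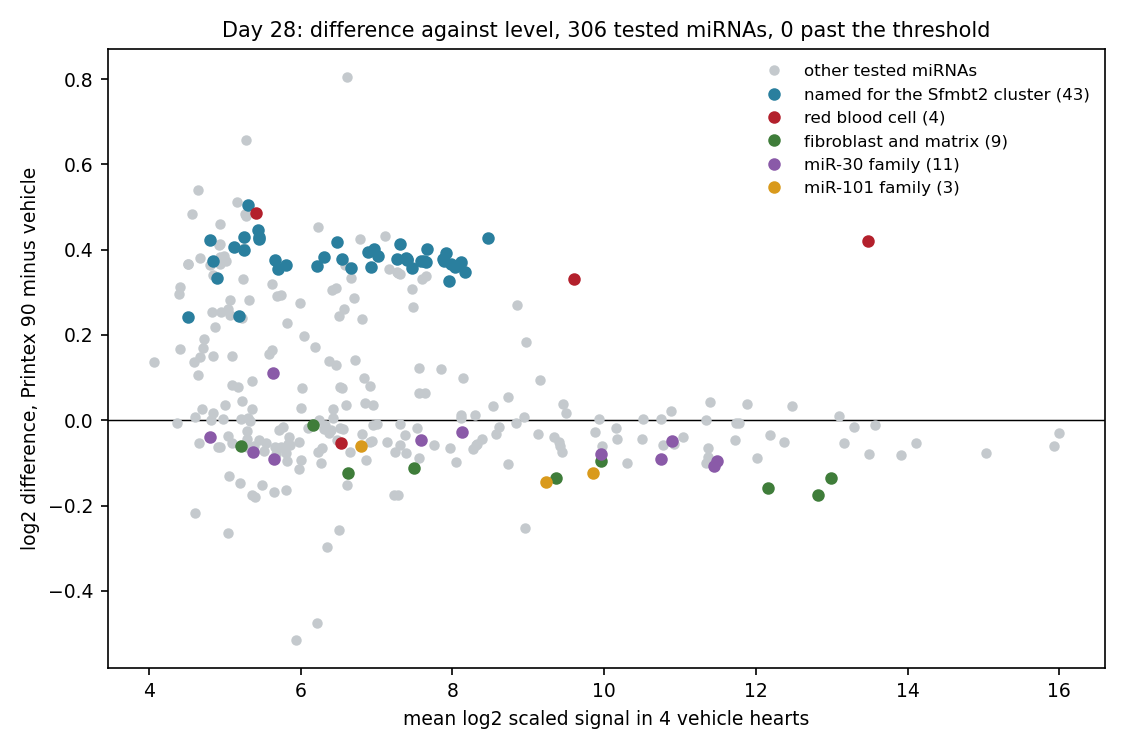
Log2 difference, Printex 90 minus vehicle, against the mean log2 scaled signal in 4 vehicle hearts for the 306 tested miRNAs of day 28, with 5 lists in colour. Members named for the Sfmbt2 cluster formed a band around their median of 0.38, at vehicle signals from 4.52 to 8.46. The 9 matrix and 3 miR-101 members and 10 of 11 miR-30 members lay below 0.

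Other miRNAs with the smallest p were, among higher values, miR-3102-3p.2 (0.38 ± 0.23), let-7f-1* (0.25 ± 0.16), miR-3072* (0.26 ± 0.17), miR-291b-5p (0.33 ± 0.22) and miR-744* (0.80 ± 0.55). The last had vehicle values from 5.55 to 7.58 and exposed values of 7.56, 6.27, 7.30, 8.45 and 7.52, which overlapped over most of their range. Among lower values were miR-31, of which the vehicle hearts held 5.40, 5.28, 5.34 and 5.59 and the exposed 4.97, 5.32, 5.19, 5.19 and 5.45 (−0.18 ± 0.11), miR-362-3p and miR-532-5p (−0.22 ± 0.15), the last detected in 1 heart of each group. Of the 347 miRNAs detected at least once, 261 were detected on all 9 arrays. In the rest the detected share had to differ, since groups of 4 and 5 share no fraction between none and all. The largest differences were those of miR-324-3p, detected in 0 of 4 vehicle and 3 of 5 exposed hearts, and miR-3063, in 2 and 5. In the other direction, miR-1892 and miR-3962 were detected in 3 of 4 vehicle and 1 of 5 exposed hearts. Among those detected in 2 of 4 and 4 of 5 were miR-190b and miR-302c, and in 4 of 4 and 3 of 5 miR-697, miR-484 and miR-2137.

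Whether the difference of day 28 was another than that of the earlier days was tested as such. By limma, 0 of 306 passed for day 28 minus day 1 (smallest adjusted p = 0.484), and 3 had an unadjusted p under 0.05 (0.98%). They were miR-31, at −0.18 on day 28 and 0.18 on day 1 (difference −0.36 ± 0.15), miR-3112*, at 0.37 and −0.40, and miR-3102-3p.2, at 0.38 and −0.27. For day 28 minus day 3, 0 passed (smallest adjusted p = 0.982) and 1 had an unadjusted p under 0.05 (0.327%), miR-10b, at −0.26 on day 28 and 0.70 on day 3. Against −0.25 on day 28, miR-208a-3p differed by −0.12 on day 1 and by 0.02 on day 3. Medians of the red cell list were 0.44, −0.16 and 0.38 in the order of the days, and those of the Sfmbt2 list −0.43, 0.12 and 0.38. Across the 306 miRNAs, which are not independent, the differences of days 28 and 1 had a Pearson correlation of −0.70 (−0.59 over the 263 without the Sfmbt2 list), and those of days 28 and 3 one of 0.45; the days share no mice.

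**Figure D5:**
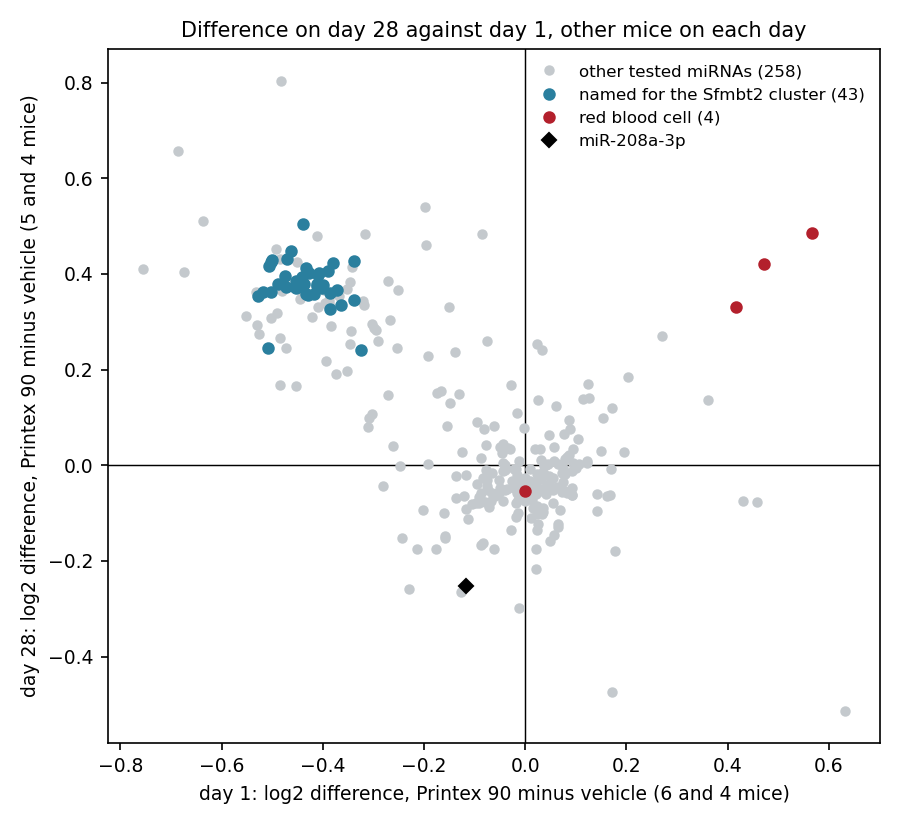
Log2 difference, Printex 90 minus vehicle, of 306 tested miRNAs on day 28 (5 and 4 mice) against day 1 (6 and 4 other mice). Members named for the Sfmbt2 cluster lay to the left of 0 on day 1 and above 0 on day 28, 3 of 4 red cell members lay above 0 on both days, and miR-208a-3p lay below 0 on both.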

How the data were processed

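Small RNA of each heart was measured on 1-colour Agilent mouse miRNA arrays, 8 to a slide, with 45440 probe spots for 1079 mouse and 57 viral miRNAs. Per the file headers, the scanner software was Feature Extraction 10.7.3.1, and the deposited intensity values used here are its processed signals, from which it had subtracted the background. The authors also deposited a series matrix of log2 values, whose centring is not stated and which served as a check. RNA extraction and labelling were the authors' own; other upstream steps were not given in the sources used here.

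Each array was divided by its 75th percentile over the 418 probes detected on all arrays. A floor was set at the lowest detected signal (16.5, or 4.04 on the log2 scale), and log2 values of a miRNA's probes were averaged. A probe was detected on an array where the scanner software marked a share of 0.5 or more of the probe's spots as well above background, and a miRNA was tested where it was detected on at least 4 arrays of 1 group of the series, which left 306. The 29 arrays with a signal entered 1 limma fit (version 3.58.1, R 4.3.3) with 6 groups, and p-values were adjusted over the 306 by Benjamini-Hochberg with a threshold of 0.05. Array values were compared by exact permutation. The p-values measure the spread between these mice only, with precision limited by the number of arrays. Slides 1, 2 and 4 held both groups of day 28, and slide 3 held Printex 90 replicate 4 alone. Slide 1 held replicate 1 of both groups, and slide 2 held replicates 2 and 3 of both. Slide 4 held vehicle replicate 4 and Printex 90 replicate 5.

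Named miRNAs were the 8 with the smallest p per direction, up to 4 per list, a set of heart and blood markers, those with groups that do not overlap, the 3 per direction for each difference between days and up to 5 per direction by detection. Those with a ug or ac repeat, those below the vehicle mean in 5 of 5, miR-195, miR-199a and miR-214 were added after their values were seen. Members and lists were chosen with earlier results of these data known. The computation was tested on simulated data. Alternatives covered scaling, background, summary, floor, filter, slide, scan session and left-out arrays.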

Additional observations from a re-analysis of the deposited data

Results flagged for a closer look

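Of 266 groups of 4 or 5 hearts looked at on day 28, 17 held a heart whose distance from the nearest other heart was large against the range of its group (Dixon's criterion), and chance gives about 1 in 20. In Printex 90 replicate 5 this was so for miR-133a (13.98) and miR-133b (15.12), both above the other exposed hearts, and for miR-152 (8.13), miR-24-1* (5.99) and miR-34a (9.70). Printex 90 replicate 4 stood apart for miR-15a* (5.74), miR-208b (4.69), miR-3102-3p.2 (5.97), miR-3112* (5.45) and miR-5127 (5.76). Among vehicle hearts replicate 1 was lowest for miR-145 (6.34) and miR-146a (6.41) and stood apart for miR-208b (4.12), which was not well above background. Vehicle replicate 2 was lowest for miR-29b (11.99), and replicate 3 was lowest for miR-22 (13.44). Vehicle replicate 4 was lowest for miR-30e (11.24) and highest for miR-532-5p (5.04).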

How the results depend on the processing

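The count of miRNAs past the threshold on day 28 was 0 under every alternative run, leaving out each heart included, with 0 to 8 miRNAs at an unadjusted p under 0.05 by limma and a smallest adjusted p of 0.643, reached when arrays were scaled on all probes. That scaling moved the median of all tested miRNAs from 0.01 to −0.16, so signs of small differences depend on it. No alternative reversed a called result, since none was called. The difference in the share of spots well above background was 0.27 percentage points, and it ran from −0.28 to 1.02 when 1 heart was left out. The fit with array weights did not converge. No paired analysis was possible because the labels give the groups no shared replicate numbers. With the median SE of 0.18 on the log2 scale over all tested miRNAs, small changes of a typical miRNA were not detectable. In the 102 with the lowest vehicle signal the median SE was 0.24.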

Other observations

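For miR-126-5p and miR-3063, singled out after their values were seen, the hearts on slide 4 stood at an end of both groups. How often this held over all tested miRNAs was not counted. In vehicle hearts miR-126-5p, the partner strand of endothelial miR-126-3p, was at 8.54, 8.92, 8.84 and 7.29, and in exposed hearts at 8.78, 8.61, 8.73, 8.19 and 7.44. The lowest heart of each group, vehicle replicate 4 and Printex 90 replicate 5, lay on slide 4, and the difference between groups was −0.04 ± 0.47. For miR-3063 the vehicle hearts were at 4.04, 5.32, 4.04 and 7.68 and the exposed hearts at 6.06, 4.57, 6.11, 5.68 and 7.23, and those hearts were the highest of their groups. Viral miRNAs, of which the design holds 57, also gave signal: 10 passed detection in 1 or more of the hearts of day 28 and 8 in all 9.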
